A study of Homo sapiens with 12 samples.

Results

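Deoxynucleotide supply for DNA synthesis was described through 9 genes. RRM1, RRM2 and RRM2B encode the subunits of ribonucleotide reductase. TYMS and TK1 encode enzymes that make thymidylate, DUT one that supplies dUMP to TYMS, and DTYMK one that phosphorylates thymidylate. DCK encodes a salvage kinase, and SAMHD1 encodes an enzyme that breaks deoxynucleoside triphosphates down. The 9 genes were taken by gene name from a table of 64253 genes, in which all were present. All 9 passed a filter on low counts that 19460 genes passed. The RNA came from JEKO-1 cells, an established line of human mantle cell lymphoma. Cells were kept for 48 h with DMSO as the solvent control, with choline salicylate (CS), with KPT-330 (selinexor, which blocks the nuclear exporter XPO1, or CRM1) or with both drugs, and 3 libraries were made of each. By its title, the study asked how salicylates add to CRM1 inhibition, with regard to S phase and the repair of DNA damage. All libraries were of a single cell line, the labels give no concentration for them in particular, and they do not say whether replicate libraries are of separate cultures. The p-values therefore reflect only how far these libraries varied, and that variation may be technical.

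Ribonucleotide reductase turns ribonucleotides into deoxyribonucleotides and pairs the large subunit RRM1 with a small subunit, either RRM2, which is made in cycling cells around S phase, or RRM2B, a p53-responsive form that serves DNA repair and mitochondrial DNA in resting cells. Thymidylate is made de novo by thymidylate synthase (TYMS) from the dUMP that the dUTPase DUT releases, or by salvage of thymidine through thymidine kinase 1 (TK1), and the kinase DTYMK adds the next phosphate on both routes. DCK phosphorylates deoxycytidine and the purine deoxynucleosides, and SAMHD1 hydrolyses dNTPs, which keeps their level low outside S phase.

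Levels below are CPM, read counts scaled to a common library total after TMM scaling, given per library or as mean ± SD of 3 libraries. Differences are log2 fold changes ± SE from edgeR's quasi-likelihood test across all tested genes, and "adjusted p" is the Benjamini-Hochberg value of that test, with 0.05 or less counted as a call. Each SE and p-value rests on a spread estimated jointly over the 4 groups. Within the groups that spread was unequal. The coefficient of variation between replicates by edgeR was 15.5% in DMSO, 11.9% in CS, 2.88% in KPT-330 and 10.8% in the combination. Libraries held between 35325563 and 59490178 counts, and a member had between 766 and 30503 reads in any library. XPO1, the target of KPT-330, stood at 845 ± 87.7 CPM in DMSO and 1575 ± 38.0 in KPT-330 (log2 fold change 0.90 ± 0.07). The 7 B cell and mantle cell lymphoma markers checked summed to between 1972 and 3360 CPM in every library, while 5 T cell, 5 myeloid and 5 epithelial or fibroblast markers summed to at most 2.72, 3.93 and 3.81 CPM. Within DMSO, CS and the combination, libraries differed in how counts depended on the GC content of genes. The slope of log2 CPM per 10 GC points ran from -0.31 to 0.09 in DMSO, from -0.23 to 0.06 in CS and from -0.15 to 0.13 in KPT-330 with CS, but only from 0.20 to 0.23 in KPT-330. In bulk RNA, a smaller share of cells expressing a gene and less RNA per cell cannot be told apart, and the share of cells in S phase was not measured in these libraries.

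Promoters are shown for 4 of the 8 members that were lower under the combination, as a description of sequence. The words searched are known from promoters of genes timed to S phase, and their part in these falls was not tested. RRM1, DTYMK, DCK and SAMHD1 were also lower and are not shown. RefSeq windows (GRCh38.p14) of 250 bases before to 50 bases after a start were matched for 8 of 9 members (not RRM2B), 13 windows in all, since RRM2 and TK1 had 2 and DUT had 4. They were searched on both strands for E2F words (TTTCCCGC, TTTCGCGC, TTTGCCGC or TTTGGCGC) and for the CCAAT box, words that do not overlap in any window shown. The 250 bases before the start are printed for RRM2 (chr2:10122489-10122738, plus strand), TYMS (chr18:657403-657652, plus strand), DUT (chr15:48331947-48332196, plus strand) and TK1 (chr17:78187053-78187302, minus strand). Each is read 5′ to 3′ along the gene, with the words found in capitals.
RRM2: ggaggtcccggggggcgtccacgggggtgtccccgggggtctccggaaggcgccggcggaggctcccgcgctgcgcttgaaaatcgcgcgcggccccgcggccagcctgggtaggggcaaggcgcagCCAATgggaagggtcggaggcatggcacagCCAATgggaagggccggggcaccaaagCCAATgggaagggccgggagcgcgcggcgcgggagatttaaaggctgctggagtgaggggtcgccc
TYMS: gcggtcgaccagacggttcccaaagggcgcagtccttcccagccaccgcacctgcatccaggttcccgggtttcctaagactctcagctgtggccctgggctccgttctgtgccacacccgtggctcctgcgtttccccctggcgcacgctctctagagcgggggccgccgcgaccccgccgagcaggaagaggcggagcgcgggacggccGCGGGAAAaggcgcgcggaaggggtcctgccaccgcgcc
DUT: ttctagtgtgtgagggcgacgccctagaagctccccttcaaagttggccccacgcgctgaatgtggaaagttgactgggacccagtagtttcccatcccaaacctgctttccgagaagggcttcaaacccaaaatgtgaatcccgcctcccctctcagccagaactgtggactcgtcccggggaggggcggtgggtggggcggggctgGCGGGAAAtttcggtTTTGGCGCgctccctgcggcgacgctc
TK1: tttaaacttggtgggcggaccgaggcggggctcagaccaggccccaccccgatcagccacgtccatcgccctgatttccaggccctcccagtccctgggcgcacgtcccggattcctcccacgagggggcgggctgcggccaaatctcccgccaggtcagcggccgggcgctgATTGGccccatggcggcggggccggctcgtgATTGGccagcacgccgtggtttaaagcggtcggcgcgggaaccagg
The RRM2 window held 3 CCAAT boxes, whose first bases lay 123, 93 and 66 bases before the start, and no E2F word. The TYMS window held 1 E2F word, on the opposite strand 39 to 32 bases before the start, and the DUT window held 2, at 42 to 35 and 27 to 20 bases. TK1 had 2 CCAAT boxes on the opposite strand, the nearer 46 to 42 bases before the start. The windows shown are those with the most words for their gene. Of the others, the second TK1 window and the 3 further DUT windows held none of the words searched, and the second RRM2 window held 1 CCAAT box. In all, E2F words were found in 3 of the 13 windows (TYMS, DUT and DCK, whose word lies after its start) and CCAAT boxes in 6 of 13, against 3.31% and 34.6% of all 35116 windows of 300 bases. A further word, TTTGAA of the cell cycle homology region, was found in 2 of the 13 windows (RRM1 and DUT) and in 15.2% of all windows. These matches describe letters and say nothing of binding.

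RRM2, the S phase small subunit of ribonucleotide reductase, changed most against DMSO among the 9 genes (ENSG00000171848, chromosome 2, 10122328 to 10131419 of hg38, as the count table gives it). It stood at 379, 423 and 459 CPM in DMSO, 360, 332 and 334 in CS, 320, 334 and 317 in KPT-330, and 122, 128 and 140 in KPT-330 with CS. The combination libraries lay far below the other 9, and both single-drug groups lay below all DMSO libraries. RRM2 fell by 1.69 ± 0.07 on the log2 scale with both drugs (adjusted p = 9.98e-10 by edgeR), to 30.9% of its DMSO level. Adding CS to KPT-330 lowered it by 1.32 ± 0.07 (adjusted p = 8.79e-08 by edgeR). With KPT-330 alone the difference was -0.38 ± 0.07 (adjusted p = 0.00083) and with CS alone -0.30 ± 0.07 (adjusted p = 0.0233). The CS call did not hold without DMSO replicate 2 or 3 or without CS replicate 2 or 3 (log2 fold changes of -0.29, -0.21, -0.28 and -0.26, adjusted p between 0.0791 and 0.104). It was also lost with only DMSO and CS in the fit (-0.27, adjusted p = 0.15 by edgeR).

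RRM1, the large subunit that holds the catalytic site (ENSG00000167325, chromosome 11, 4094707 to 4138876), was lower in the combination by less than its partner. Its levels were 561, 604 and 639 CPM in DMSO, 563, 555 and 522 in CS, 538, 550 and 534 in KPT-330, and 380, 394 and 411 in the combination. The combination libraries were the lowest 3 of the 12, and the CS range reached into that of DMSO. RRM1 fell by 0.61 ± 0.06 on the log2 scale with both drugs (adjusted p = 1.19e-06 by edgeR) and by 0.45 ± 0.06 when CS was added to KPT-330 (adjusted p = 5.94e-05). Under KPT-330 alone it stood at -0.15 ± 0.06 (adjusted p = 0.0409 by edgeR), a call kept in only 7 of 19 alternatives. The value turned to 0.01 when libraries were scaled by size alone. The call did not hold without DMSO replicate 2 or 3 or without any 1 KPT-330 library (between -0.17 and -0.10). With GC content corrected over the 12 libraries the value was -0.04 (adjusted p = 0.158 by edgeR).

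RRM2B, the alternative small subunit (ENSG00000048392, chromosome 8, 102204502 to 102239118), did not pass the test between the combination and DMSO. It stood at 35.5, 40.9 and 45.9 CPM in DMSO, 39.4, 35.8 and 33.3 in CS, 31.2, 30.8 and 30.7 in KPT-330, and 42.3, 41.4 and 46.1 in the combination. The KPT-330 libraries were the lowest 3 of the 12, and the combination libraries lay within or just above the DMSO range. RRM2B fell with KPT-330 alone (-0.40 ± 0.09, adjusted p = 0.00255 by edgeR) and was higher by 0.49 ± 0.09 when CS was added to KPT-330 (adjusted p = 0.001). Its transcript has 35.1% GC, the lowest of the 9 genes. When GC content was corrected over the 12 libraries these values were -0.20 (adjusted p = 0.000463 by edgeR) and 0.33 (adjusted p = 3.11e-06). Against DMSO the combination stood at 0.09 ± 0.09, with a 95% interval of -0.11 to 0.28 (adjusted p = 0.44 by edgeR). That comparison passed at 0.27 with scaling by library size alone (adjusted p = 0.00972) and at 0.12 when GC content was corrected over the 12 libraries (adjusted p = 0.0162). Of 20 listed p53 targets 19 were tested, of which 7 were higher and 3 lower with both drugs, against 29.3% of all genes higher and 26.2% lower. With KPT-330 alone 8 of the 19 were higher and 4 lower, against 24.7% and 23.8% of all genes. When CS was added to KPT-330, 7 were higher and 5 lower, against 19.7% and 17.9%.

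**Figure D1:**
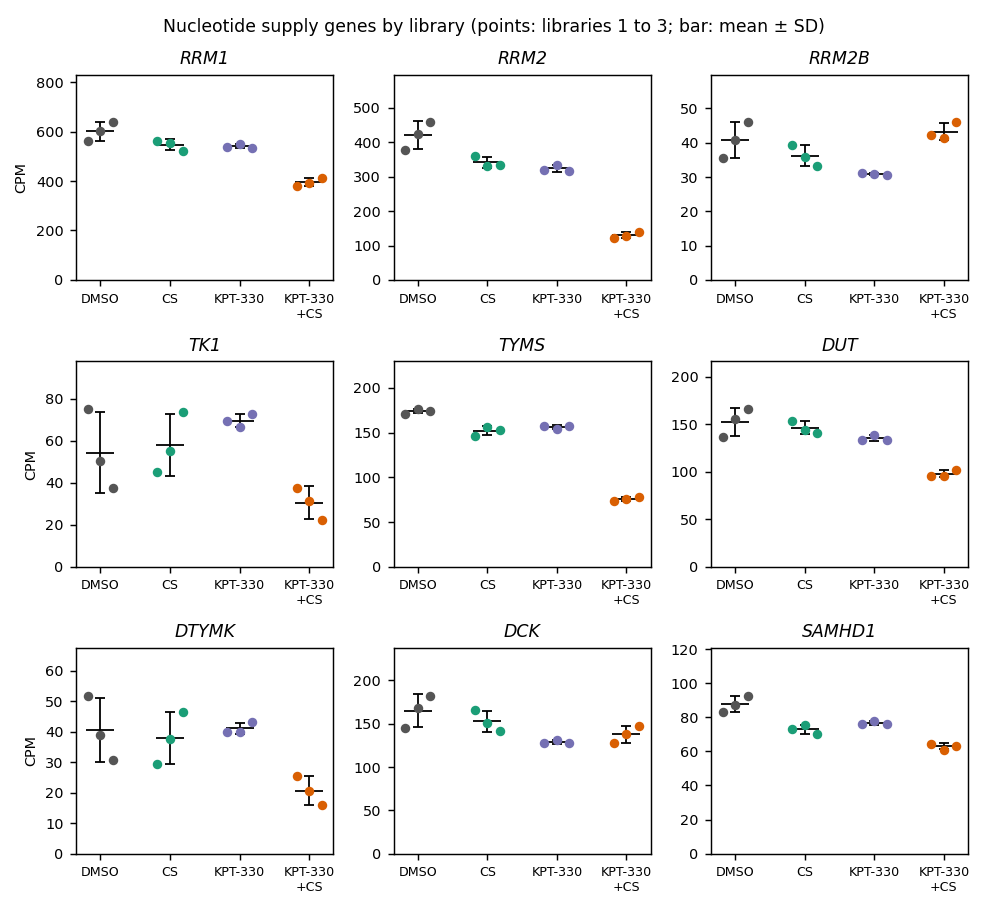
CPM of each of the 9 genes (vertical axes, from 0) in the 12 libraries, grouped on the horizontal axis by treatment; points are libraries and bars are the mean ± SD of 3. RRM2 and TYMS in the combination lie far below the other 9 libraries, RRM2B in the combination lies at 41.4 to 46.1 CPM, and TK1 and DTYMK spread widely within DMSO, CS and the combination but not within KPT-330.

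The balance of the small subunit genes moved with the combination. Within a library, RRM2B stood at 9.37%, 9.67% and 10.0% of the RRM2 CPM in DMSO, at 10.9%, 10.8% and 9.97% in CS, at 9.76%, 9.20% and 9.70% in KPT-330, and at 34.7%, 32.3% and 32.9% in KPT-330 with CS. These shares compare counts and not molecules, since the genes differ in length, but their change between groups does not depend on length. The mean log2 ratio was -3.37 ± 0.05 in DMSO and -1.59 ± 0.05 in the combination (SD, n = 3), a 3.44-fold difference, and -3.39 ± 0.05 in KPT-330. An exact two-sided permutation test gave p = 0.1 for the combination against DMSO and against KPT-330 (0.2 adjusted over 4 comparisons), which is the smallest p that 3 against 3 libraries allow. CS against DMSO differed by 0.13 on the log2 scale (exact permutation p = 0.2) and KPT-330 against DMSO by -0.02 (exact permutation p = 0.7).

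**Figure D2:**
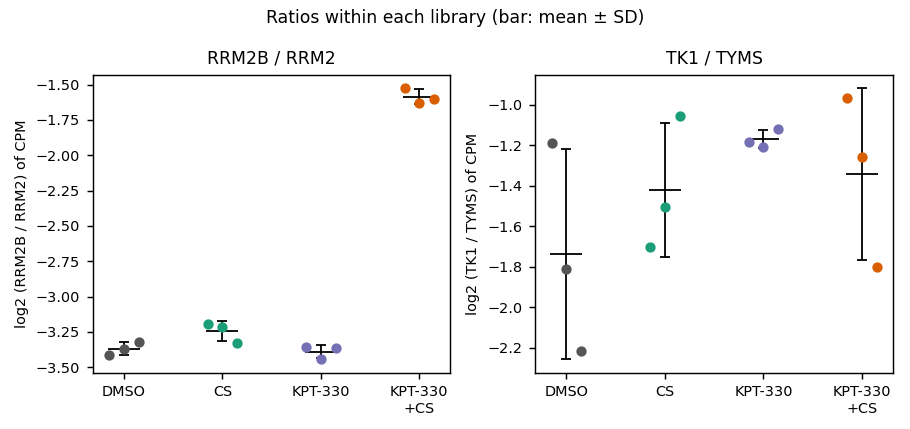
Log2 ratios of CPM within each library for RRM2B over RRM2 (left) and TK1 over TYMS (right), by treatment; points are libraries and bars the mean ± SD of 3. The RRM2B to RRM2 ratio of the 3 combination libraries lies apart at -1.63 to -1.53, above the other 9 at -3.44 to -3.19, whereas the TK1 to TYMS ratios of the 4 groups overlap.

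TYMS, which makes thymidylate from dUMP and is the target of fluoropyrimidines (ENSG00000176890, chromosome 18, 657604 to 673578), had the tightest replicates of the thymidylate genes. Its levels were 171, 176 and 174 CPM in DMSO, 146, 156 and 153 in CS, 158, 154 and 158 in KPT-330, and 73.7, 75.3 and 78.3 in the combination. The combination libraries were all below the other 9, and the DMSO libraries were all above both single-drug groups. TYMS fell by 1.20 ± 0.05 on the log2 scale with both drugs (adjusted p = 3.76e-10 by edgeR) and by 1.04 ± 0.05 when CS was added to KPT-330 (adjusted p = 1.04e-08). CS alone gave -0.19 ± 0.05 (adjusted p = 0.0209 by edgeR) and KPT-330 alone -0.15 ± 0.05 (adjusted p = 0.0145), the latter at 0.01 with scaling by library size alone. The CS call did not hold without DMSO replicate 2 or without any 1 CS library (-0.22 to -0.17), nor the KPT-330 call without DMSO replicate 2 or KPT-330 replicate 2 (both -0.14). The CS call was also lost with only DMSO and CS in the fit (-0.16, adjusted p = 0.182 by edgeR). TYMS overlaps ENOSF1 on the opposite strand, which had 24.3% as many reads and stood at 0.01 ± 0.06 with both drugs, and since the library kit (TruSeq RNA V2) does not mark strand, reads of the overlap cannot be told apart.

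DUT, the dUTPase that keeps uracil out of DNA and supplies dUMP (ENSG00000128951, chromosome 15, 48331011 to 48343373), was lower than DMSO under both drugs in every alternative run. It stood at 137, 155 and 166 CPM in DMSO, 154, 144 and 141 in CS, 134, 139 and 134 in KPT-330, and 96.1, 95.9 and 102 in the combination. The combination libraries were the lowest 3 of the 12, while both single-drug groups overlapped DMSO. DUT fell by 0.64 ± 0.07 on the log2 scale with both drugs (adjusted p = 2.84e-06 by edgeR) and by 0.47 ± 0.07 when CS was added to KPT-330 (adjusted p = 0.000152). KPT-330 alone gave -0.18 ± 0.07 (adjusted p = 0.0441 by edgeR), a call lost in 14 of 19 alternatives, among them without DMSO replicate 2 or 3 or any 1 KPT-330 library (-0.19 to -0.10), and CS alone gave -0.06 ± 0.07 (adjusted p = 0.652). DUT overlaps RP11-154J22.1 on the opposite strand, which had 8.90% as many reads and stood at 0.29 ± 0.09 with both drugs (adjusted p = 0.0106 by edgeR). Without strand, reads of that overlap cannot be told apart.

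TK1, the salvage kinase for thymidine and a marker of proliferating cells (ENSG00000167900, chromosome 17, 78174075 to 78187233), spread widely within 3 of the 4 groups. It stood at 75.1, 50.3 and 37.5 CPM in DMSO, 45.0, 55.1 and 73.7 in CS, 69.4, 66.6 and 72.6 in KPT-330, and 37.7, 31.5 and 22.5 in the combination. All combination libraries lay below all KPT-330 and CS libraries, but the highest of them reached the lowest DMSO library. Its transcript has 62.8% GC, against a median of 47.7% over tested genes, and within DMSO, CS and the combination its level followed the order of the libraries' GC slopes. TK1 fell by 1.19 ± 0.24 on the log2 scale when CS was added to KPT-330 (adjusted p = 0.00174 by edgeR) and by 0.83 ± 0.24 with both drugs against DMSO (adjusted p = 0.00908). The latter was -0.53 without DMSO replicate 1 (adjusted p = 0.0924) and -0.65 with scaling by library size alone (adjusted p = 0.0705). KPT-330 against DMSO stood at 0.36 ± 0.23 (adjusted p = 0.225 by edgeR), at 0.66 without DMSO replicate 1 (adjusted p = 0.0455), at 0.41 with a GC correction within groups (adjusted p = 3.48e-07) and at -0.21 with such a correction over all 12 libraries (adjusted p = 0.00125), so its direction was not settled. After the correction over all libraries the SD of log2 CPM within DMSO went from 0.50 to 0.10, and the levels were 60.6 ± 4.22 CPM in DMSO, 62.8 ± 1.78 in CS, 52.4 ± 1.55 in KPT-330 and 29.7 ± 1.75 in the combination.

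DTYMK, the kinase that turns dTMP into dTDP (ENSG00000168393, chromosome 2, 241675742 to 241686991, 59.3% GC), spread in the same way as TK1. Its levels were 51.9, 38.9 and 30.8 CPM in DMSO, 29.6, 37.5 and 46.6 in CS, 40.1, 39.9 and 43.3 in KPT-330, and 25.5, 20.4 and 16.1 in the combination. The combination libraries lay below the other 9. DTYMK fell by 0.97 ± 0.20 on the log2 scale with both drugs (adjusted p = 0.00103 by edgeR) and by 0.99 ± 0.20 when CS was added to KPT-330 (adjusted p = 0.00182). Neither drug alone passed, at 0.02 ± 0.20 for KPT-330 and -0.10 ± 0.20 for CS, and the former turned to -0.39 when GC content was corrected over the 12 libraries (adjusted p = 1.96e-05 by edgeR). The ratio of TK1 to TYMS, which sets salvage against de novo thymidylate genes, averaged -1.74 ± 0.52 in DMSO, -1.42 ± 0.33 in CS, -1.17 ± 0.05 in KPT-330 and -1.34 ± 0.42 in the combination (log2, SD, n = 3). None of its 4 comparisons reached the smallest possible p (exact permutation p between 0.2 and 0.7).

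**Figure D3:**
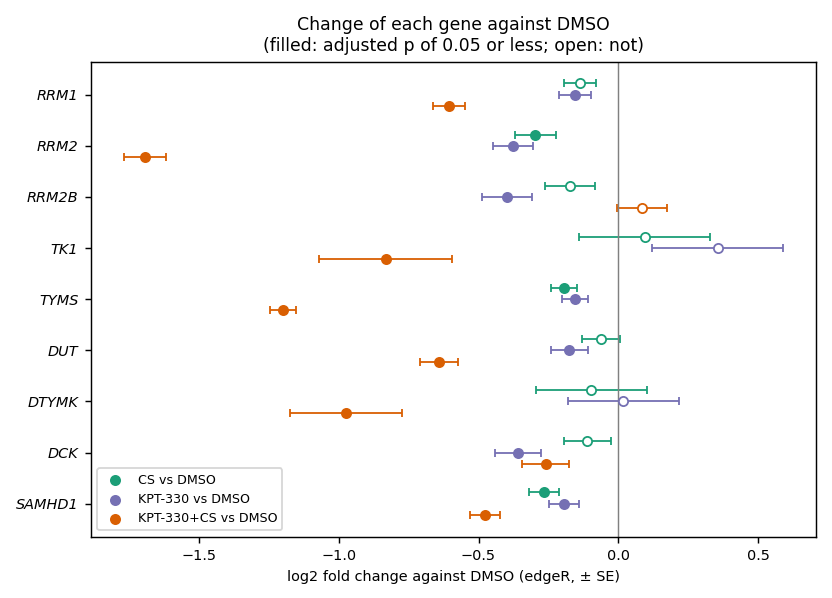
Log2 fold change against DMSO of each gene (horizontal axis, ± SE) under CS, KPT-330 and both drugs; filled points passed an adjusted p of 0.05 and open ones did not. With both drugs 8 genes are lower and RRM2 reaches -1.69, while single-drug changes lie between -0.40 and 0.36, and the KPT-330 values of RRM1 and TYMS turn to 0.01 with scaling by library size alone.

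DCK, which activates deoxycytidine and its drug analogues (ENSG00000156136, chromosome 4, 70992538 to 71030914), did not pass the test when CS was added to KPT-330. It stood at 145, 168 and 182 CPM in DMSO, 166, 151 and 142 in CS, 128, 131 and 127 in KPT-330, and 128, 138 and 148 in the combination. The KPT-330 libraries lay below all DMSO and CS libraries, and the combination overlapped every other group. DCK fell with KPT-330 alone by 0.36 ± 0.08 (adjusted p = 0.00303 by edgeR), and the addition of CS moved it by 0.10 ± 0.08, with a 95% interval of -0.08 to 0.28 (adjusted p = 0.371). Its transcript has 37.8% GC. When GC content was corrected over all libraries, the difference between KPT-330 and DMSO was -0.18 (adjusted p = 2.40e-05 by edgeR). With both drugs DCK stood at -0.26 ± 0.08 against DMSO (adjusted p = 0.0167 by edgeR), a call lost without DMSO replicate 3 (-0.16) or combination replicate 1 (-0.21) and with scaling by library size alone (-0.07). Its span overlaps MOB1B on the same strand, which had 36.3% as many reads and stood at -0.52 ± 0.09 with KPT-330 alone and -0.04 ± 0.09 with both drugs. MOB1B was higher by 0.49 ± 0.09 with CS than with KPT-330, and by 0.48 ± 0.09 when CS was added to KPT-330. How reads of the overlap were assigned is not stated.

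SAMHD1, the dNTP hydrolase (ENSG00000101347, chromosome 20, 36890229 to 36951843), stepped down with each drug and lowest with both. Its levels were 83.2, 87.2 and 92.7 CPM in DMSO, 73.0, 75.7 and 70.1 in CS, 76.1, 77.8 and 76.1 in KPT-330, and 64.4, 61.1 and 63.4 in the combination. No 2 of the 4 groups overlapped. SAMHD1 fell by 0.48 ± 0.05 on the log2 scale with both drugs (adjusted p = 5.71e-06 by edgeR), by 0.28 ± 0.05 when CS was added to KPT-330 (adjusted p = 0.00115) and by 0.27 ± 0.05 with CS alone (adjusted p = 0.00857). KPT-330 alone gave -0.19 ± 0.05 (adjusted p = 0.00902 by edgeR), at -0.03 with scaling by library size alone. The CS call was lost without CS replicate 3 (-0.22, adjusted p = 0.0722 by edgeR) and the KPT-330 call without DMSO replicate 3 (-0.14, adjusted p = 0.0531). With only DMSO and CS in the fit the CS call was lost too (-0.24, adjusted p = 0.128 by edgeR).

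Counted together, 8 of the 9 genes were lower with both drugs than with DMSO and 0 were higher, while 26.2% of all tested genes were lower. The median log2 fold change was -0.64 over the members and 0.04 over all tested genes. Genes of the mitochondrial chromosome took 9.31% to 10.0% of the counts in the combination and 6.45% to 8.27% in the other 9 libraries. With those genes left out of the library sizes and TMM run again, 8 of 9 members were again lower. That run could hardly differ, because TMM already offsets such a shift in library totals, and it moved the median of all genes by only -7.92e-05. The part of the mitochondrial share in these falls was not tested. When CS was added to KPT-330, 7 of 9 were lower and 1 higher, against 17.9% of all genes lower and 19.7% higher, with medians of -0.47 and 0.00, and RRM1, RRM2, RRM2B, TK1, TYMS, DUT, DTYMK and SAMHD1 kept these calls in every alternative run. When KPT-330 was added to CS, 7 of 9 were lower and 1, RRM2B, higher by 0.26 ± 0.09, against 21.7% of all genes lower and 26.1% higher. The RRM2B call of that comparison was lost without CS replicate 2 or 3 or combination replicate 1 or 3 (0.19 to 0.27). With KPT-330 alone 7 of 9 were lower and 0 higher, against 23.8% and 24.7% of all genes, and the median was -0.18. That count was 3 with scaling by library size alone, which moved the median of all genes by 0.16, and 4 without DMSO replicate 2 or 3 or KPT-330 replicate 2. With CS alone 3 of 9 were lower (RRM2, TYMS and SAMHD1) and 0 higher, against 5.13% and 3.76%, a count that was 0 with only DMSO and CS in the fit or without CS replicate 3, 1 without DMSO or CS replicate 2, and 5 without DMSO replicate 1. Between the single drugs only DCK passed, higher with CS by 0.25 ± 0.08, against 20.2% of all genes higher and 22.6% lower, and this call was lost without CS replicate 1 or 2 or any 1 KPT-330 library (0.19 to 0.26). With GC content corrected over all libraries this DCK difference was 0.11 (adjusted p = 0.0029 by edgeR). No member passed the study's own limit of a log2 fold change beyond 2 in any of these comparisons, which 3.02% of all genes passed with KPT-330, 0.144% with CS, 4.36% with both drugs, 2.67% between the single drugs, 0.853% when CS was added to KPT-330 and 3% when KPT-330 was added to CS, and 0.761% for the interaction of the drugs. Library ranges of the 2 groups did not overlap for 6 of 9 members with KPT-330 (57.7% of all genes), 3 with CS (22.7%), 6 with both drugs (56.7%), 4 between the single drugs (58.9%), 8 when CS was added to KPT-330 (57.1%) and 8 when KPT-330 was added to CS (54.1%). The comparisons with DMSO share its 3 libraries.

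The interaction term, which asks whether the effect of CS differs with and without KPT-330, passed for 7 of the 9 genes, and for 4 without DMSO or CS replicate 2. It was negative for 6 of them, against 6.62% of all genes, and positive for RRM2B, against 8.04%. On the log2 scale the single-drug changes of RRM2 summed to -0.67, and the combination stood at -1.69, an interaction of -1.02 ± 0.10 (adjusted p = 5.24e-05 by edgeR). For TYMS the sum was -0.35 and the combination -1.20 (interaction -0.85 ± 0.07, adjusted p = 5.96e-06 by edgeR). DUT had an interaction of -0.40 ± 0.09 (adjusted p = 0.0129 by edgeR) and RRM1 one of -0.32 ± 0.08 (adjusted p = 0.021). RRM2B went the other way, with single drugs summing to -0.57 and the combination at 0.09 (interaction 0.66 ± 0.13, adjusted p = 0.00438 by edgeR). The terms of TK1 (-1.28 ± 0.33, adjusted p = 0.0219 by edgeR) and DTYMK (-0.90 ± 0.28, adjusted p = 0.0486) were the least precise. DCK (0.21 ± 0.12) and SAMHD1 (-0.02 ± 0.08, 95% interval -0.18 to 0.15) did not pass, and for SAMHD1 the sum of the single drugs, -0.46, lay close to the -0.48 measured. The interaction was lost for RRM1 without replicate 2 of any 1 group (-0.32 to -0.31) and with DESeq2 size factors (-0.32). TK1 lost it in 7 of 24 alternatives, among them without DMSO or CS replicate 2 or 3 or KPT-330 replicate 3 (-1.32 to -1.08). The others were no filter (-1.31, adjusted p = 0.139 by edgeR) and leaving out the 3 libraries of lowest GC slope in DMSO, CS and the combination (-1.04, adjusted p = 0.0777). DTYMK lost it in 14 of 24 alternatives, among them 9 that left out 1 library (DMSO or CS replicate 2 or 3, any KPT-330 library, combination replicate 2 or 3), between -0.92 and -0.72.

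**Figure D4:**
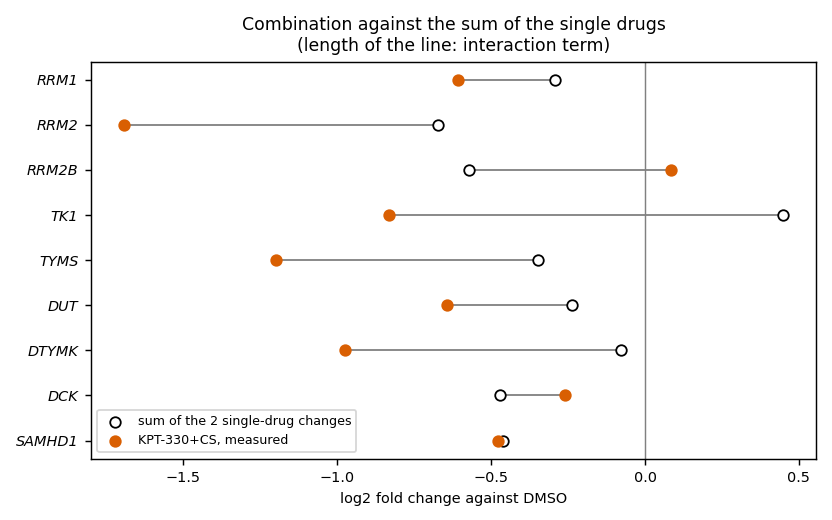
For each gene, the sum of the CS and KPT-330 log2 fold changes against DMSO (open) and the log2 fold change measured with both drugs (filled), joined by a line whose length is the interaction term. The filled point lies to the left of the open one for RRM1, RRM2, TK1, TYMS, DUT and DTYMK, to the right for RRM2B and DCK, and on it for SAMHD1.

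Compared per length (CPM per kilobase of the length that the table gives each gene), RRM1 had the highest level of the 9 in every group, at 144 in DMSO and 94.5 in the combination. In DMSO it was followed by RRM2 at 84.8, TYMS at 70.4, DCK at 51.2, DUT at 41.6, TK1 at 29.2, SAMHD1 at 17.4, DTYMK at 16.5 and RRM2B at 7.35. Library ranges overlapped between the neighbours DCK and DUT, DUT and TK1, and SAMHD1 and DTYMK. In the combination RRM2, at 26.2, stood behind RRM1, DCK at 42.7, TYMS at 30.7 and DUT at 26.7, with the last of these overlapping it. RRM2B stayed lowest in every group, but in the combination, at 7.79, its range overlapped that of DTYMK at 8.44.

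Among the other genes of nucleotide metabolism, 66 of 67 listed genes were tested (CDA was not), and with both drugs 34 were lower and 6 higher than in DMSO, with a median of -0.35 against 0.04 over all tested genes, of which 26.2% were lower and 29.3% higher. Enzymes of de novo purine synthesis were lower for 10 of 13 and higher for 1 (median -0.47), pyrimidine synthesis for 4 of 6 (median -0.39), and the folate cycle for 4 of 11 (median -0.20), to be read against the same 26.2%. CTPS1, which makes CTP from UTP, went from 125 ± 6.39 CPM in DMSO to 82.4 ± 2.06 in KPT-330 and 35.8 ± 0.661 with both drugs, and fell by 1.80 ± 0.05 on the log2 scale (adjusted p = 3.14e-11 by edgeR). Of the folate enzymes, MTHFD1 fell by 1.16 ± 0.04 and the mitochondrial MTHFD1L by 1.25 ± 0.06. CCNF, the cyclin F that marks RRM2 for degradation, fell by 1.25 ± 0.14, and CMPK2, a mitochondrial UMP-CMP kinase also known as an interferon-stimulated gene, by 1.58 ± 0.24 at about 1 CPM (1.15 ± 0.21 in DMSO). Higher were TK2, the mitochondrial thymidine kinase, from 1.27 ± 0.27 to 3.92 ± 0.26 CPM (log2 fold change 1.64 ± 0.16), the guanylate kinase gene GUK1 (1.24 ± 0.30) and the nucleoside transporter gene SLC29A2 (1.14 ± 0.18). GUK1 spread widely, at 15.4 ± 6.36 CPM in DMSO and 36.4 ± 11.1 in the combination.

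With both drugs, 7 of 15 salvage and transport genes were lower and 3 higher. Of 16 kinases and breakdown enzymes 6 were lower and 1 higher, and of 5 partners of ribonucleotide reductase 3 and 1. These counts are to be read against 26.2% of all genes lower and 29.3% higher. With KPT-330 alone 22 of the 66 were lower and 11 higher (median -0.02), against 23.8% and 24.7% of all genes. TXNRD1, the thioredoxin reductase whose substrate reduces ribonucleotide reductase, fell by 0.71 ± 0.06, MTHFD1L by 0.60 ± 0.06 and CTPS1 by 0.60 ± 0.05. GUK1 (1.38 ± 0.30), TK2 (1.16 ± 0.16) and CAD (1.06 ± 0.12), the first enzyme of pyrimidine synthesis, rose. GUK1 stood at 15.4 ± 6.36 CPM in DMSO and 40.2 ± 2.36 in KPT-330, and CAD at 188 ± 29.5 and 390 ± 12.7. ADSSL1 (1.12 ± 0.38) and NT5M (1.01 ± 0.33) also rose, both under 1 CPM. With CS alone 10 were lower and 0 higher, against 5.13% and 3.76% of all genes, led by NME1 (-0.30 ± 0.08), ADK (-0.30 ± 0.06) and GMPS (-0.28 ± 0.08). When CS was added to KPT-330, 31 were lower and 5 higher (median -0.36), against 17.9% and 19.7% of all genes. CTPS1 fell by a further 1.20 ± 0.05, CMPK2 by 1.05 ± 0.25 and the folate carrier gene SLC19A1 by 0.93 ± 0.26. GLRX, the glutaredoxin that can also reduce ribonucleotide reductase, rose by 0.57 ± 0.07, ADA by 0.51 ± 0.12 and TK2 by 0.48 ± 0.14. When KPT-330 was added to CS, 30 were lower and 7 higher, against 21.7% and 26.1% of all genes. Lower were CTPS1 (-1.65 ± 0.05), MTHFD1L (-1.31 ± 0.06), CCNF (-1.20 ± 0.14), CMPK2 (-1.10 ± 0.25) and MTHFD1 (-1.01 ± 0.04), and higher were GUK1 (1.49 ± 0.30), TK2 (1.37 ± 0.15) and SLC29A2 (0.65 ± 0.17). Between the single drugs 11 were lower and 14 higher with CS than with KPT-330, against 22.6% and 20.2% of all genes. GUK1 (-1.64 ± 0.30), CAD (-1.07 ± 0.12) and TK2 (-0.90 ± 0.15) were the lowest, and MTHFD1L (0.66 ± 0.06), TXNRD1 (0.55 ± 0.06) and the mitochondrial folate enzyme gene MTHFD2 (0.51 ± 0.06) the highest. The interaction passed for 9 lower and 3 higher, against 6.62% and 8.04% of all genes. Lower were CTPS1 (-1.05 ± 0.07), CCNF (-0.80 ± 0.19) and CAD (-0.77 ± 0.17) first, and higher were GLRX (0.59 ± 0.10), NT5C2 (0.40 ± 0.09) and PNP (0.30 ± 0.08). All these calls are edgeR's at an adjusted p of 0.05 or less. Of 31 replication fork and G1/S genes, 28 were lower and 0 higher with both drugs (median -0.64), as 28 and 0 were when CS was added to KPT-330, against 26.2% and 17.9% of all genes lower.

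**Figure D5:**
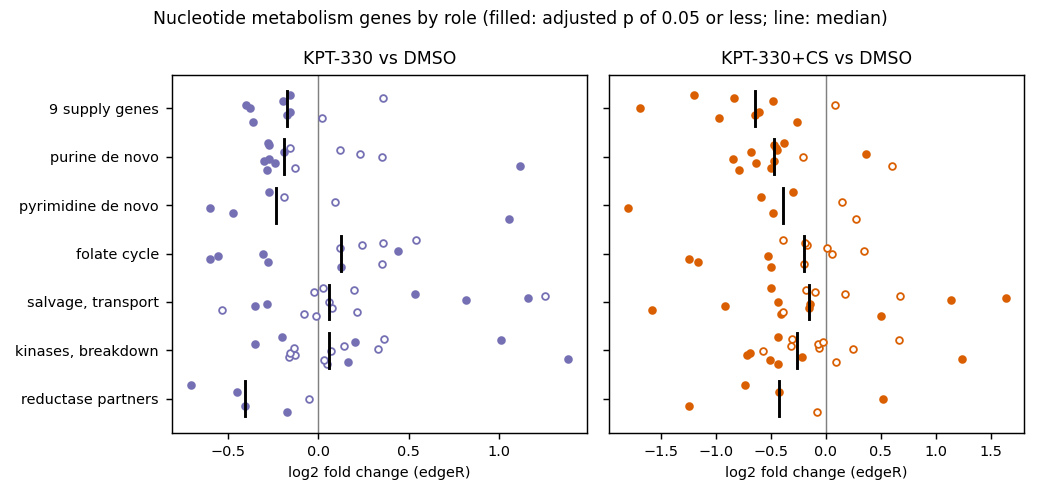
Log2 fold change against DMSO (horizontal axis) of the 9 genes and of 6 groups of other nucleotide metabolism genes (rows) under KPT-330 and under both drugs; filled points passed an adjusted p of 0.05 and vertical lines are medians. The members' median lies at -0.18 under KPT-330 and -0.64 under both drugs, and CTPS1 at -1.80 is the lowest point of the other groups under both drugs.

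As a description of patterns, log2 CPM over the 12 libraries was compared between each member and 10049 other genes of at least 5 CPM. The nearest to RRM2 were PCNA, the replication clamp (Pearson r = 0.996), and ABCA6 (0.995), to RRM1 ATAD2 and ARPC2, to TYMS NOP14 and H2AFY, to DUT TTL and CELF2, to DCK PPP1CC and DMTF1, and to SAMHD1 MRPL39 and GLRX3. RRM2B was nearest to DOCK10 and PRKAB2 (both 0.98). TK1 was nearest to MYBL2 and RABL6, with 60.5% and 62.3% GC, and DTYMK to NUP210 and TUBG1, with 58.4% and 52.4% GC. Among the members, RRM1 and RRM2 had r = 0.99 and TK1 and DTYMK r = 0.97, while RRM2B and TK1, with 35.1% and 62.8% GC, had r = -0.88. These 12 points share 4 treatments and the GC trend of each library. That trend moves genes of like GC content together and genes of low and high GC content apart, and its part in these values was not tested.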

How the data were processed

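PolyA RNA of 12 JEKO-1 libraries (3 in each of 4 groups, from the labels) was extracted with an FFPE kit and made into TruSeq RNA V2 libraries, per the labels' protocols. The deposited table holds raw read counts per gene made by the authors, with genome build hg38, and the submitters' processing notes name STAR and edgeR. The counting program and its settings are not stated in the labels or the design text. The deposited gene length column was used for levels per kilobase. All 12 libraries entered 1 fit in edgeR 4.0.16 (R 4.3.3): genes kept by filterByExpr, TMM scaling, group as the only term (8 residual degrees of freedom), robust quasi-likelihood tests of 7 contrasts, and Benjamini-Hochberg adjustment over 19460 genes. Each SE was taken as |log2 fold change|/√F. Ratios of CPM were compared by exact two-sided permutation tests. Log2 CPM used a prior count of 2.

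The 9 genes and all lists were chosen with earlier results of these data known. Genes named outside the members were, per comparison, the called genes of the wider lists at each end of the log2 scale (3 highest, 3 lowest), with any called beyond 1, XPO1, and the 2 genes most like each member. ENOSF1 and MOB1B were named because they overlap a member. Alternatives were no filter, a filter of 1 CPM in 3 libraries, DESeq2 size factors, library size alone, DESeq2 1.42.0, edgeR's likelihood ratio test, limma 3.58.1 with voom, a replicate block, only the groups compared, a GC correction (lowess, span 0.3) and each library left out. A GC correction within groups, leaving out the 3 libraries of lowest GC slope in DMSO, CS and the combination, and library sizes without mitochondrial genes were chosen after seeing the data. Scripts were tested on simulated data. No per-sample column was left out. Figures were drawn with matplotlib 3.10.9.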

Additional observations from a re-analysis of the deposited data

Results flagged for a closer look

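The effect of CS differed with and without KPT-330, by edgeR's interaction term, for 7 of the 9 genes. On the log2 scale the term was -1.02 for RRM2, -0.85 for TYMS, -0.40 for DUT and 0.66 for RRM2B, and these 4 passed in every alternative run. It was -0.32 for RRM1, -1.28 for TK1 and -0.90 for DTYMK, which did not pass in every alternative. RRM2B differed in sign from the other 6. Of all tested genes, 6.62% were lower and 8.04% higher by this test. The GC slopes of the libraries averaged 0.21 in KPT-330 and -0.12, -0.09 and 0.00 in DMSO, CS and the combination. TK1 and DTYMK have the highest GC content of the 9 genes, and with a GC correction over all libraries their terms were -0.87 and -0.62. RRM2B has the lowest, at 35.1%, and with that correction its term was 0.46. Without the 3 libraries of lowest GC slope in DMSO, CS and the combination, the terms of TK1 and DTYMK were -1.04 and -0.73. Neither passed (adjusted p = 0.0777 and 0.0775 by edgeR). The part of GC content in the result was not tested.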

How the results depend on the processing

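Of 1242 alternative values for the single genes, 1094 kept their direction and their side of the threshold, 94 kept their direction and lost the call, 24 gained one and 30 changed sign. In 7 of the 30 the reported or the alternative value passed the test: RRM1 and TYMS under KPT-330 with library size alone (0.00784 and 0.00614), and, with the GC correction over all libraries, TK1 (-0.21) and DTYMK (-0.39) under KPT-330 against DMSO and RRM1 (-0.0818), TK1 (0.26) and DTYMK (0.26) for CS against KPT-330. In the other 23 neither passed. They were DTYMK for KPT-330 against DMSO with DESeq2 size factors (-0.00662), the DESeq2 test (-0.00596) and without the lowest GC slope libraries (-0.146), DTYMK (0.0358) and RRM1 (-0.00509) for CS against KPT-330 without those libraries, DUT under CS (0.00257) and RRM1 (-0.0811) and RRM2 (-0.0178) for CS against KPT-330 with library size alone, DCK for the combination against KPT-330 with the GC correction over all libraries (-0.0313), and 14 values with 1 library left out. With the GC correction over all libraries the KPT-330 against DMSO log2 ratios became 0.0898 for RRM2B to RRM2 and -0.0558 for TK1 to TYMS, and TK1 to TYMS became 0.29 for the combination against KPT-330. The cause was not tested.

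Members called under KPT-330 went from 7 to 4 with no filter and 3 with library size alone. All genes called under KPT-330 went from 9446 of 19460 to 8656 of 36140 and 9556 of 19460 with these settings. Under CS the members called went from 3 to 1 with DESeq2 size factors and 0 with only the groups compared. They went to 5 and 6 with the GC correction over all libraries and within groups. For CS against KPT-330 they went from 1 to 2 with library size alone and with only the groups compared, and to 5 and 4 with the same GC corrections. All genes called for CS against KPT-330 were 8325 of 19460 as reported and 8415 of 19460 with library size alone. They were 9447 of 18643 with only the groups compared, and 9980 and 11033 of 19460 with the GC corrections. Genes called under CS went from 1729 of 19460 to 1279 with DESeq2 size factors and 249 of 17722 with only the groups compared. They were 4562 with the GC correction over all libraries and 4650 within groups. Interaction calls went from 2853 to 5122 and 7003 with these corrections. The interaction has no value with only the groups compared.

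With 1 library left out, members called ranged from 4 to 8 under KPT-330, 0 to 5 under CS, 0 to 2 for CS against KPT-330 and 4 to 8 for the interaction. Genes called ranged from 7812 to 10400 under KPT-330 and from 760 to 2580 under CS. They ranged from 6536 to 8590 for CS against KPT-330 and from 1713 to 4711 for the interaction. The log2 ratio of RRM2B to RRM2 ranged from -0.0431 to 0.00734 for KPT-330 against DMSO, and TK1 to TYMS from 0.08 to 0.59 for CS against DMSO, from 0.33 to 0.84 for KPT-330 against DMSO, from 0.16 to 0.67 for the combination against DMSO and from -0.36 to 0.0575 against KPT-330.

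Single-gene values that changed sign with 1 library left out ranged from -0.134 to 0.24 (DTYMK, KPT-330 against DMSO), -0.0977 to 0.40 (TK1, CS against DMSO), -0.14 to 0.0256 (DUT, CS against DMSO), -0.25 to 0.122 (DTYMK, CS against DMSO), -0.0095 to 0.20 (RRM2B, combination against DMSO), -0.00541 to 0.0672 (RRM1, CS against KPT-330), -0.28 to 0.0349 (DTYMK, CS against KPT-330) and -0.0716 to 0.0167 (SAMHD1 interaction).

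Replicate numbers share no stated origin, so they were not taken to pair the samples. Deviations of same-numbered libraries correlated between -0.38 and 0.40, and 3 of 12 libraries matched best with their own number. These values cannot show or exclude a shared origin, because the deviations also carry the GC trend of each library. GC slopes fell from replicate 1 to 3 in DMSO and the combination and rose in CS. A replicate block gave 1036 genes called under CS, and among the members RRM1 (-0.15) and DUT (-0.17) under KPT-330, RRM2B (0.26) for the combination against CS and the DTYMK interaction (-0.93) no longer passed.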
